A study of Mus musculus with 2 samples.

Results

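Genes of the cell division cycle and of DNA replication were compared between splenic CD4+ T cells of LatY136F and wildtype mice. Members were taken by symbol from the array's platform annotation: the Mcm, Orc, cyclin A, B, D and E, Cdk, Cdkn, Cenp, kinesin, Bub, Aurk, Plk, E2f, Rfc and Pola, Pold and Pole families, with Mki67, Top2a, Tk1, Pcna, Cdc6, Cdc20, Cdc45, Tyms, Rrm1, Rrm2 and Birc5. The rule found 76 probes of 70 genes, among 4654 probes of 4331 genes with a single symbol. The rule reads symbols and no measured value, but it was proposed with earlier results of these data known. Of the named families and genes, cyclin B, Cdc20 and Tyms were not analysed here. Some symbols came in by name alone, namely Mcm3ap, Cdk2ap1, the Cdk5 activators Cdk5r1 and Cdk5r2, and 5 kinesins outside the list of mitotic motors. Without these, 61 genes remained.

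Both groups were CD4+ alpha beta T cells isolated from mouse spleens by magnetic anti-CD4 selection and sorting. LatY136F cells carry a phenylalanine in place of a tyrosine of Lat, the adaptor that passes T cell receptor signals inward, and wildtype cells do not. Strain, age, the number of mice and any pooling are not stated in the labels, and no treatment is named. Total RNA of both groups was hybridised together on 2 two-colour arrays with the dyes reversed, and every value below is a log2 ratio of LatY136F over wildtype. The pair of arrays was counted as 1 biological comparison, so no gene has a p-value, and ± marks 0.5 times the gap between the arrays, which may be technical only.

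The reading of the table sets the sign and size of every ratio. Deposited values were read as log10 ratios because the highest value on array 1 was exactly 2.00, and as channel 2 over channel 1; neither the base nor the direction is stated. The deposited columns had a Pearson r of -0.21 over 8014 probes, and array 2 was multiplied by -1. After that, r across genes, which are not independent replicates, was 0.33. Under the opposite reading every "higher" would be "lower". Spot brightness was not analysed here, so which probes lay near background is unknown, and the number of arrays limits the precision.

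Resting T cells sit outside the division cycle, and signals from the T cell receptor and from interleukin-2 bring them into it. D-type cyclins with Cdk4 and Cdk6, then cyclin E with Cdk2, release E2f factors from the retinoblastoma protein, and E2f targets include the enzymes of DNA synthesis. Origins are licensed by the origin recognition complex, Cdc6 and the Mcm helicase, while a later wave of genes drives mitosis. Inhibitors of the Cip/Kip and Ink4 families hold the kinases back. In bulk RNA, more dividing cells and more RNA per dividing cell cannot be told apart.

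Some replication and mitotic genes had higher ratios on both arrays while others of the same groups lay near 0 or changed sign, and the highest mean belonged to an inhibitor. Called higher here means a log2 ratio of 1 or more, 2-fold, on each array. In LatY136F cells 4 of 70 members were called higher: Cdkn1a, Mki67, Top2a and Tk1. That is 5.71% of members, against 4.20% of all genes, so the share past 2-fold was close to the background. No member was 2-fold lower on both arrays, where 0.970% of all genes were. A threshold of 1.5-fold on both arrays was passed upward by 11 members, or 15.7%, against 7.83% of all genes. These were the 4 above with Bub1, Orc1, Cenpk, Plk4, Cdk1, Mcm6 and Mcm5. At least 1.5-fold lower was 1 member, Cdkn1c (1.43% against 2.93% of all genes).

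The median over the 70 members was 0.21, beside 0.00 over all genes. It was 0.25 on array 1 and 0.11 on array 2. Of the members, 45 had a mean above 0 (64.3%, beside 50.1% of all genes). Above 0 on both arrays were 32 (45.7%, beside 30.3%), and below 0 on both were 11 (15.7%, beside 25.5%). The arrays gave the same sign for 61.4% of members and 55.8% of all genes, and the median of the ± value was 0.15 in each. By that measure the gap between the arrays was alike in members and in all genes.

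**Figure D1:**
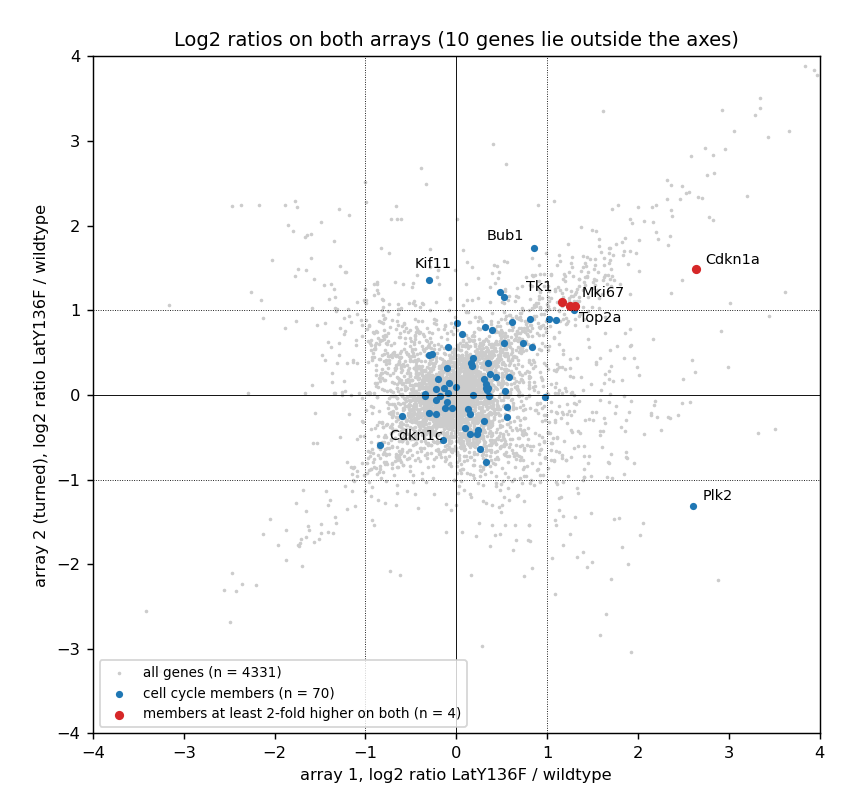
Each point is a gene, with its log2 ratio of LatY136F over wildtype on array 1 (x axis) and on array 2 after turning (y axis); dotted lines mark 2-fold. Cdkn1a stands at 2.64 and 1.49, Mki67, Top2a and Tk1 lie just past 1 on both axes, and Plk2 lies at 2.61 and -1.31.

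Of 9 origin and licensing genes, 3 passed 1.5-fold upward on both arrays (33.3%, beside 7.83% of all genes) and none was called. All 9 had a mean above 0 (beside 50.1% of all genes), 7 of them on both arrays (77.8%, beside 30.3%), and the median was 0.29. Orc1, the largest subunit of the origin recognition complex, gave 1.29 on array 1 and 1.00 on array 2, a value just under the 2-fold line there (mean 1.14 ± 0.15, 2.21-fold). The helicase subunit Mcm6 gave 0.61 and 0.86, and Mcm5 gave 0.74 and 0.61. Each array placed all 3 genes past 1.5-fold.

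The remaining licensing genes were nearer 0. Cdc6, which loads the helicase, gave 0.35 and 0.38, and its 2 probes had means of 0.46 and 0.26. Mcm4 gave 0.18 and 0.34 and Mcm7 gave 0.35 and 0.08. Mcm8, a helicase of recombination, gave 0.53 and 0.05. Each of these genes stayed under 1.5-fold on both arrays. Cdc45, part of the active helicase, was at -0.09 and 0.56, and Mcm3ap, a nuclear export factor named for binding Mcm3, was the lowest of the group at 0.36 and -0.01.

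The promoters of Orc1, Mcm6 and Mcm5 are shown because these genes led the licensing group. The RefSeq promoter table (GRCm38.p6) gave the 250 bases before the gene start, written 5′ to 3′ along the gene. Capitals mark E2F-type letters (TTTCCCGC, TTTGGCGC, TTTCGCGC or TTTGCCGC) and the CCAAT box (CCAAT), on either strand.
Orc1 (chr4:108579204-108579453, plus strand): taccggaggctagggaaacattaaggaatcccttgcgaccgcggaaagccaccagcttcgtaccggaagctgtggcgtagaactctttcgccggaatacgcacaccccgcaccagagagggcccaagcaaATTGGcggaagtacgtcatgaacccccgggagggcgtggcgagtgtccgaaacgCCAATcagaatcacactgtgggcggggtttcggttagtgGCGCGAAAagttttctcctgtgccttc
Mcm6 (chr1:128359706-128359955, minus strand): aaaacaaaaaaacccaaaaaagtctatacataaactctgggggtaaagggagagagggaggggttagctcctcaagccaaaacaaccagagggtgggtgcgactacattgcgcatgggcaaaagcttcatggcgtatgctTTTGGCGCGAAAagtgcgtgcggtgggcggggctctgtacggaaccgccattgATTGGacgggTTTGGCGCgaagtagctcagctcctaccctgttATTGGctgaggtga
Mcm5 (chr8:75109259-75109508, plus strand): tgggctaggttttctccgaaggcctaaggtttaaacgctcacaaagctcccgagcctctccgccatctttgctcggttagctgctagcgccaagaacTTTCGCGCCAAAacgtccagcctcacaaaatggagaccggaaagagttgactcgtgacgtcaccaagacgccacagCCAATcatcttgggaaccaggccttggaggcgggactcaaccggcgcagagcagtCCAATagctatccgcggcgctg
Each of the 3 windows held both kinds of letters. The E2F-type match of Orc1 lies on the opposite strand, 27 to 20 bases before the start. Mcm6 had 3 such matches and Mcm5 had 2, and in each gene 1 pair overlaps on opposite strands, read as 1 run of capitals.

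Enzymes of DNA synthesis and nucleotide supply included 2 of the 4 called members, or 22.2% of 9 genes, beside 4.20% of all genes. Of the 9, 7 had a mean above 0 (77.8%, beside 50.1% of all genes). Above 0 on both arrays were 6 (66.7%, beside 30.3%), and the median was 0.56. Tk1, the salvage thymidine kinase of S phase, gave 1.17 and 1.10 (1.13 ± 0.03, 2.19-fold). Top2a, the topoisomerase that untangles replicated chromosomes, gave 1.25 and 1.05 (1.15 ± 0.10, 2.22-fold). For both genes the gap between the arrays was small beside the ratio.

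Ribonucleotide reductase makes the deoxynucleotides. Its regulatory subunit Rrm2 gave 0.48 and 1.22, and its large subunit Rrm1 gave 0.83 and 0.57. Rrm1 missed the 1.5-fold line on array 2 and Rrm2 missed it on array 1. Pold3, a subunit of polymerase delta, was at 0.31 and 0.80. Pcna, the sliding clamp, gave 0.37 and 0.25 (0.31 ± 0.06). The others had no steady direction: the polymerase epsilon subunit Pole3 gave 0.56 and -0.26, the primase-polymerase subunit Pola2 -0.14 and 0.08, and Rfc1, a clamp loader subunit, -0.09 and 0.02, the lowest mean here. Over licensing and synthesis together, 13 of 18 genes were above 0 on both arrays (72.2%, beside 30.3% of all genes), 5 changed sign between the arrays and none was below 0 on both (median 0.34). Past 1.5-fold on both arrays were 5 of the 18 (27.8%, beside 7.83%).

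**Figure D2:**
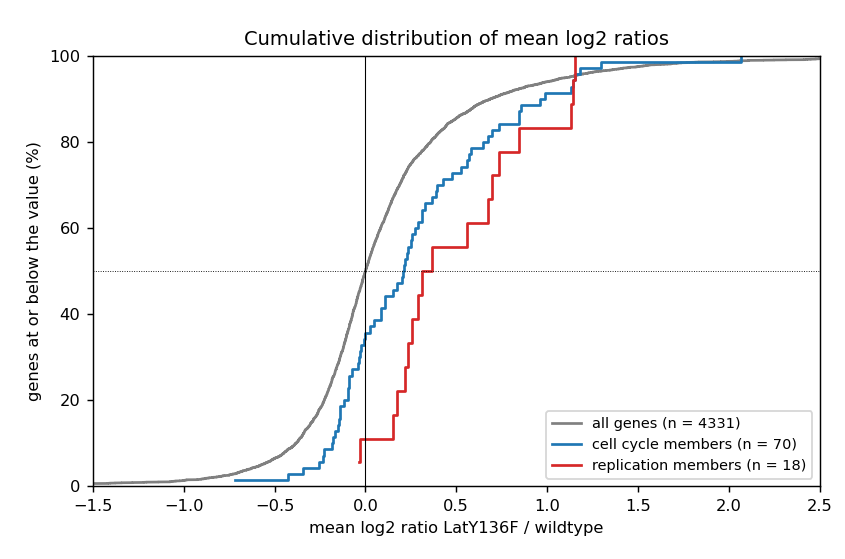
Cumulative share of genes (y axis, percent) at or below each mean log2 ratio of LatY136F over wildtype (x axis), for all 4331 genes, the 70 members and the 18 replication members. The curves cross 50% near medians of 0.00, 0.21 and 0.34, and the member curve rejoins that of all genes at high ratios.

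Cyclins and E2f factors had small ratios. Ccnd2, the D-type cyclin used by activated lymphocytes, was the highest cyclin at 0.53 and 0.61 (0.57 ± 0.04). Ccnd1 was at -0.20 and 0.19, the lowest of the 5. Ccna2, the S and G2 phase cyclin, gave 0.58 and 0.21. The E-type cyclins were at 0.56 and -0.14 (Ccne1) and 0.34 and 0.06 (Ccne2). No cyclin reached 1.5-fold on both arrays. All 4 E2f means lay above 0, from 0.09 (E2f3) to 0.33 (E2f5, 0.44 and 0.22), but only E2f5 and the activator E2f1 (0.31 and 0.19) were above 0 on both arrays.

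Among cyclin-dependent kinases, the mitotic kinase stood above Cdk4 and Cdk2 on both arrays, but not above Cdk6 on array 1. Cdk1, which drives entry into mitosis, gave 0.81 and 0.90 (0.86 ± 0.04, 1.81-fold), with near equal values on both arrays. Cdk4 gave 0.00 and 0.09, and Cdk2 gave -0.22 and -0.06. Cdk6 was at 0.98 and -0.02. Its 2 probes differed on array 1, at 1.68 and 0.27, and lay at -0.03 and -0.02 on array 2, so Cdk6 has no settled value.

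The 15 genes with a Cdk symbol had a median of 0.04. On both arrays 5 were above 0 and 5 below 0 (33.3% each, beside 30.3% and 25.5% of all genes). Cdk7, the kinase that activates other Cdks, was at -0.22 and 0.07. Several of the others have roles outside the cycle, such as Cdk5 in neurons and Cdk13 in transcription. Their means ran from -0.18 (Cdk11b) to 0.43 (Cdk18, 0.01 and 0.85). The 2 probes of Cdk13 had means of -0.20 and 0.66. The Cdk5 activator Cdk5r2 had the lowest mean of the group, at -0.60 and -0.25, and Cdk5r1 gave 0.33 and -0.80.

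The Cdk inhibitors had no shared direction. Cdkn1a, encoding p21, a Cip/Kip inhibitor induced by p53 and by mitogenic signals, gave 2.64 and 1.49, the highest mean of all members (2.07 ± 0.58, 4.19-fold) and rank 49 of 4331 genes. The size of this ratio is uncertain, since the arrays differed, while both were past 2-fold. Cdkn1b, the p27 inhibitor that keeps T cells resting, was at -0.35 and 0.02. Cdkn1c, the p57 inhibitor, was the only member at least 1.5-fold lower on both arrays, at -0.84 and -0.59 (-0.72 ± 0.13, 1.64-fold lower). The 3 Cip/Kip genes therefore had a high, a near-zero and a low ratio.

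Of the Ink4 inhibitors, which bind Cdk4 and Cdk6, Cdkn2d (p19) gave 0.40 and 0.76, below 1.5-fold on array 1. Cdkn2c (p18) gave 0.24 and -0.42. Cdkn2b (p15) gave -0.23 on each array and Cdkn2a -0.15 and -0.53. The Cdkn2a locus makes both an Ink4 protein and Arf, and the annotation does not say which transcript the probe reads. Cdkn3, a phosphatase that acts on Cdks, was at 0.53 and 1.16. Over all 8 genes the median was -0.13. On both arrays 3 were above 0 and 3 below 0 (37.5% each, beside 30.3% and 25.5% of all genes).

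**Figure D3:**
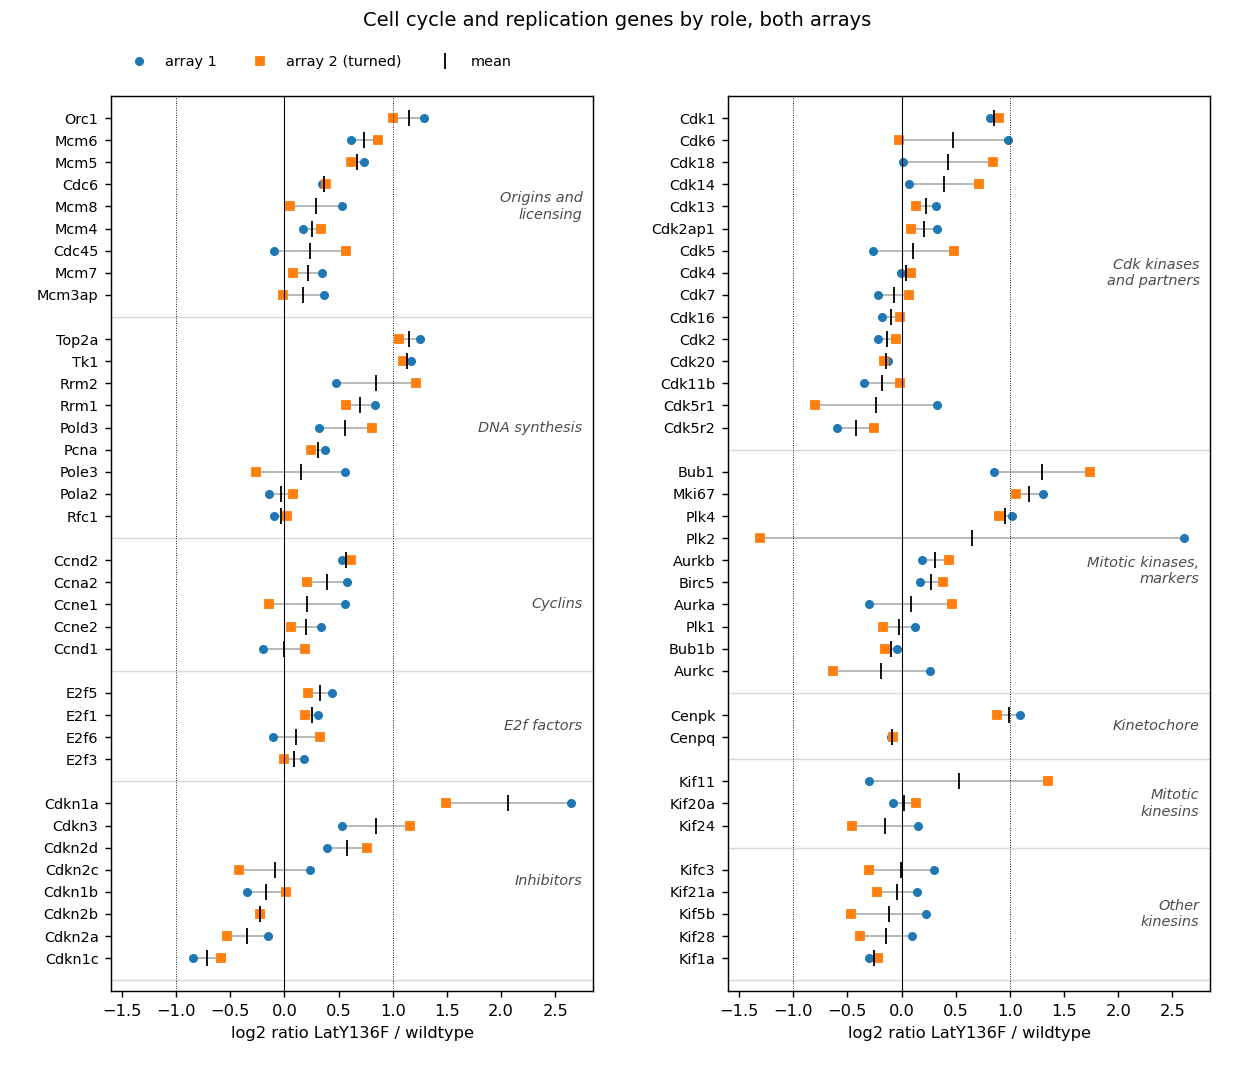
Log2 ratio of LatY136F over wildtype (x axis) for every member, grouped by role; circles are array 1, squares are array 2 after turning, and bars are means. The 9 origin and licensing means lie right of 0, Cdkn1a has the highest mean, and Plk2 has the widest gap, from -1.31 to 2.61.

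Mitotic kinases and division markers were split. Mki67, the antigen that coats mitotic chromosomes and marks cycling cells, gave 1.30 and 1.05 (1.18 ± 0.13, 2.26-fold). Bub1, a kinase of the spindle checkpoint, gave 0.86 and 1.74 (1.30 ± 0.44). Plk4, which starts centriole duplication, gave 1.02 and 0.90 (0.96 ± 0.06). Both arrays thus put these 3 genes at least 1.5-fold higher.

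Other genes of the same stage lay nearer 0. Plk1, the main mitotic Polo kinase, was at 0.12 and -0.17, and the checkpoint gene Bub1b at -0.04 and -0.15. Aurkb, the kinase of the chromosomal passenger complex, gave 0.19 and 0.44, and its partner Birc5 (survivin) gave 0.17 and 0.38. Aurka, the spindle pole kinase, gave -0.30 and 0.47. Aurkc, known from germ cells, had the lowest mean of these 10 genes, at 0.27 and -0.64. Over the 10 genes, 3 passed 1.5-fold on both arrays (30.0%, beside 7.83% of all genes) and the median was 0.29.

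Plk2, a Polo kinase that is also an early response gene, gave opposite readings. Array 1 had 2.61 and array 2 had -1.31, so the ± value was 1.96, the widest of all members. Kif11, the motor that separates the spindle poles, also disagreed, at -0.30 and 1.36. Its 2 probes showed the same split, at -0.27 and 1.53 for one and -0.33 and 1.18 for the other. These were the 2 members that were 2-fold apart on an array with the opposite sign on the other (2.86%, against 7.30% of all genes), and they have no direction here.

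Kinetochore and motor genes were few. Cenpk, of the inner kinetochore network, gave 1.10 and 0.88 (0.99 ± 0.11, 1.99-fold), while Cenpq of the same network gave -0.10 and -0.08. Of the mitotic kinesins other than Kif11, Kif20a, a motor of cytokinesis, was at -0.08 and 0.14 and Kif24, a centriole motor, at 0.16 and -0.46. The 5 other kinesins, mostly motors of cargo transport, had means from -0.26 (Kif1a, -0.30 and -0.21) to 0.00 (Kifc3, 0.30 and -0.30). Kif5b, the ubiquitous transport kinesin, was at 0.23 and -0.47, Kif21a at 0.15 and -0.23 and Kif28 at 0.10 and -0.39. The 2 probes of Kif5b had means of 0.05 and -0.29. None of these 5 had a mean above 0 (beside 50.1% of all genes). Only 1 of them, Kif1a, had the same sign on both arrays (20.0%, beside 55.8%), so the group has no settled direction.

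The promoters of Cdk1, Top2a and Mki67 are given because genes of the late cycle are known to carry the cell cycle homology region with CCAAT boxes. Windows, build and strand are as above, and capitals here also mark the homology region letters, TTTGAA or TTCGAA. Among the 11 members at least 1.5-fold higher, only these 3 held such letters, so the windows shown are not typical of the 11. Elsewhere, Bub1b, Kif11 and Kif24 held both these letters and CCAAT, Bub1, Cenpk, Plk1 and Aurka held CCAAT alone, and Birc5 held neither.
Cdk1 (chr10:69352913-69353162, minus strand): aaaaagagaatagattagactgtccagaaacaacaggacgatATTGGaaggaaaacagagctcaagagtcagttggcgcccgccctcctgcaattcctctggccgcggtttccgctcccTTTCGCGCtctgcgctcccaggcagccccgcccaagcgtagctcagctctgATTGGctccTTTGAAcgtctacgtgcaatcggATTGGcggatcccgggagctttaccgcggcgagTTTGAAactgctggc
Top2a (chr11:99024190-99024439, minus strand): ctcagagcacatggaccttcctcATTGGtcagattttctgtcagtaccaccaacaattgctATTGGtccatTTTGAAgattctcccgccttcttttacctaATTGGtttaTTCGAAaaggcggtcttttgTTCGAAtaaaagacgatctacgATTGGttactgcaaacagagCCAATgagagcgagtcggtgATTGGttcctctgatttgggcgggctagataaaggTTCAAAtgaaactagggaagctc
Mki67 (chr7:135716380-135716629, minus strand): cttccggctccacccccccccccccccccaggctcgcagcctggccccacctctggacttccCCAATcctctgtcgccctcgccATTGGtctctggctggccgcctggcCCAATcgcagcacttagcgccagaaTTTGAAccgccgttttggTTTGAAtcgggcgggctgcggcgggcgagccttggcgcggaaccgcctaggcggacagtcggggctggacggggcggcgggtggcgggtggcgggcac
Cdk1 held all 3 kinds of letters, with 1 E2F-type match, 2 homology region matches and 3 CCAAT boxes. Top2a held no E2F-type match, 4 homology region matches and 6 CCAAT boxes. Mki67 held no E2F-type match, 2 homology region matches and 3 CCAAT boxes. TTCGAA is its own reverse complement and was counted once per position. The windows of Tk1, Plk4 and Cdkn1a, which has 2 listed starts, held none of these letters, which says only that the letters are not in those windows.

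A promoter was listed for 56 of 70 members, and a gene with several windows counted if any held the letters. E2F-type letters stood in 9 of the 56 (16.1%), beside 3.45% of 3422 measured genes with a promoter and 2.16% of 27025 genes in the table. The 9 were Cdc6, Cdk1, Cdk2, Cdkn2a, E2f3, Mcm5, Mcm6, Mcm7 and Orc1, with a median log2 ratio of 0.36, and 6 of them were above 0 on both arrays. The 47 members without these letters had a median of 0.21, and 20 of them were above 0 on both arrays. Over all genes 30.3% were above 0 on both. CCAAT stood in 53.6% of members, 40.9% of measured genes and 37.5% of the table, and the homology region letters in 23.2%, 15.6% and 19.6%. Members with and without CCAAT had median log2 ratios of 0.30 and 0.16. With and without the homology region letters the medians were 0.22 and 0.23. Among the 11 members at least 1.5-fold higher, 4 held E2F-type letters, 3 homology region letters and 8 a CCAAT box. Several members are textbook E2f targets, so the share describes the families and is not a result about LatY136F cells.

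Genes of the cycle outside the member rule showed a like spread. Of 98 listed, 42 were measured, with a median of 0.30. Above 0 on both arrays were 23 (54.8%, beside 30.3% of all genes), and below 0 on both were 7 (16.7%, beside 25.5%). At least 2-fold higher on both was 1 (2.38%, beside 4.20% of all genes), Ect2, the exchange factor that starts cytokinesis, at 1.23 and 1.78. At least 1.5-fold higher were 9 (21.4%, beside 7.83%). They included Racgap1, the partner of Ect2, at 1.37 and 0.95, the spindle assembly factor Tpx2 at 0.94 and 1.15, the mitotic kinase Nek2 at 0.81 and 1.14 and the ubiquitin enzyme Ube2c at 0.95 and 0.82. The Cdk-binding protein Cks1b, the helicase Blm, the methyltransferase Ezh2 and Anapc4 completed them.

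In the other direction, 1 of the 42 was at least 1.5-fold lower, Dck, the salvage deoxycytidine kinase, at -0.65 and -0.71. Myc, a growth regulator that promotes cycle entry, was at -0.44 and -0.57. The licensing factor Cdt1 gave 0.27 and 0.48 and the retinoblastoma gene Rb1 0.29 and 0.38. Foxm1, a transcription factor of mitotic genes, was at 0.59 and -0.38 and has no direction. Hells, a chromatin remodeller, gave 3.32 and -0.45, a gap wider than its mean. With Ccnf, Chek2 and Cdc25c it made up the 4 that were 2-fold apart on an array with the opposite sign on the other. That is 9.52% of the 42, beside 7.30% of all genes.

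Markers of other cells differed beside these genes. Erythroid markers (4 of 8 measured) had means from 0.13 to 2.42, with Hba-a1 and Epor at least 2-fold higher on both arrays. Neutrophil markers (4 of 9) ran from 0.63 to 3.62 with 3 called higher (75.0%, beside 4.20% of all genes). Those of monocytes and macrophages (9 of 12) ran from -0.45 to 2.48 with 4 called higher (44.4%). Plasma cell markers (4 of 5) ran from 0.81 to 1.22, all at least 1.5-fold higher on both arrays (beside 7.83% of all genes). None of them was called at 2-fold. Both platelet markers measured, of 4 listed, stood at 1.20 and 1.55. B cell markers (9 of 10) ran from -2.29 to -0.21 with 6 called lower (66.7%, beside 0.970% of all genes). CD8 T cell markers stood at -2.22 and -0.63. The part of these cells in the ratios of the cycle genes was not tested.

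Of the labelled T cells themselves, 8 of 10 markers were measured, and their means ran from -0.17 to 0.81 with none called. Cd4 stood at -0.17 and Cd3e at -0.01. A ratio gives no level, so purity cannot be read from these arrays. Natural killer markers (4 of 5, -1.75 to 0.21, 1 called lower) and dendritic markers (4 of 5, -0.26 to 1.19, 1 called higher) went both ways.

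**Figure D4:**
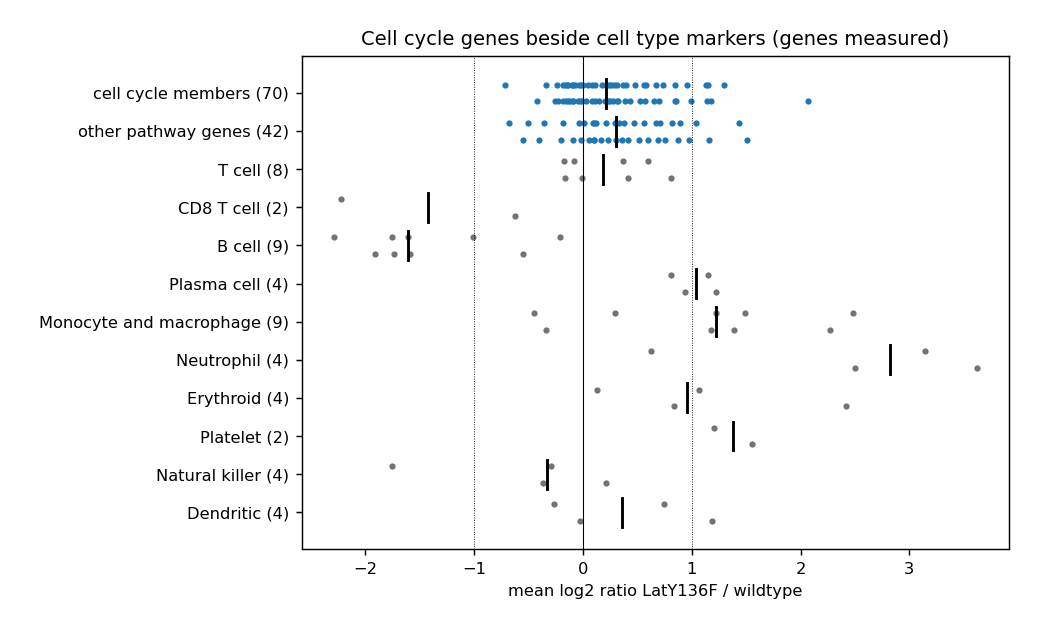
Mean log2 ratio of LatY136F over wildtype (x axis) for the members, the other cycle genes and each marker list (rows, with the number of genes measured); each point is a gene, vertical bars are medians and dotted lines mark 2-fold. The cycle genes have medians of 0.21 and 0.30, while neutrophil markers reach a median of 2.82 and B cell markers -1.61.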

How the data were processed

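RNA of splenic CD4+ T cells from LatY136F and wildtype mice was compared on 2 two-colour arrays with reversed dyes, per the labels. The deposited values are 1 ratio per probe and array, read as log10 from their range; how the authors corrected background, normalized or filtered them is, in the sources used here, not given. Array 2 was multiplied by -1, values were converted from log10 to log2 (a factor of 3.32), each array was centred on its median over 8014 probes, and probes of a gene were averaged (Python 3.11.15, pandas 2.3.3). Probes with several symbols or none were left out. All 70 members matched a RefSeq gene identifier. A gene was called at 2-fold or more on both arrays in 1 direction; no test was possible with 1 comparison. The calling rule was tested on simulated data. Members, role groups, other cycle genes, motifs and markers were chosen with earlier results of these data known. Named with both values were members past 1.5-fold on both arrays or 2-fold with opposite signs, the extremes of each role group and a fixed set of 16 regulators where measured; others were added after their values were seen. Alternatives covered centring, scaling, single arrays, probe choice, log base, direction, zeros, thresholds and the member list.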

Additional observations from a re-analysis of the deposited data

How the results depend on the processing

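The 4 members called higher were the same 4 genes without centring and with scaled arrays. They were also called with the probe furthest from 0, with probes at exactly 0 left out and by single probes. The same held without partner names and other kinesins. Apart from centring and scaling, these settings could not change the calls. Each of the 4 genes has 1 probe, no member probe was at exactly 0, and none of the 4 is a partner name or a kinesin. A 2-fold threshold on the mean called 6. A single array called 8 members higher, since a call then needs only 1 array (8 on array 1, 8 on array 2), and lower 0 to 1, the 1 being Plk2. Thresholds of 1.5-fold and 3-fold on both arrays gave 11 and 0 higher and 1 and 0 lower, as such thresholds must move counts. Read as log2, the table would hold 0 members 2-fold higher and a median of 0.063, so the folds rest on the log10 reading. In the opposite direction 0 members would be higher and 4 lower, the median would be -0.21 and 35.7% of means would lie above 0. Without partner names and other kinesins 70.5% of means lay above 0, in place of 64.3%. The median ran from 0.11 to 0.25 on single arrays. For 34 named members, 102 alternatives used both arrays. Of these, 101 moved the value by at most 1 SD of the 2 arrays, the exception being Cenpq without centring. None reversed a called value. That count was close to fixed in advance. Probe choice could move only Cdk6 and Kif11, the named members with several probes. Leaving out centring shifted every gene alike, and scaling took Plk2, with the widest gap, only from 0.6487 to 0.6479. A single array moves a value by 0.5 times the gap between the arrays and cannot reverse a called gene, so those 68 alternatives say nothing about stability. No paired analysis was possible because there is only 1 comparison, measured on a dye-reversed pair.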

Other observations

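Genes known as p53 targets, a list chosen after the values of Cdkn1a and Plk2 were seen, went both ways. Of 27 listed, 12 were measured, with a median log2 ratio of 0.16, beside 0.00 over all genes. Of the 12, 2 were called higher (16.7%, beside 4.20% of all genes; the list is not independent of the values): Pmaip1, encoding the BH3-only protein Noxa, at 1.91 and 2.08, and the membrane gene Perp at 1.24 and 1.11. Apaf1, the apoptosome scaffold, gave 0.82 and 0.91. The death receptor gene Fas was at least 1.5-fold lower on each array, at -0.84 and -0.64, and the repair gene Xpc gave -0.60 and -0.55. Mdm2, the ubiquitin ligase that p53 induces, was at 0.27 and 0.15, and Gadd45a at 0.05 and 0.16.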
